A study of Mus musculus with 12 samples.

Results

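Mouse embryonic stem cells that had been exposed to panobinostat for 6 h were compared with untreated cells (0 h). The cells of both groups were wild-type E14, a male line of 129/Ola origin that was grown without feeder cells, on gelatin, in medium with serum and the cytokine LIF. The 6 h group received 50 nM panobinostat (LBH589), and the 0 h group received no drug. Each group was measured on 3 Illumina bead arrays, so 6 of the 12 arrays of the series belong to the comparison. Cells at 2 h and 18 h of the same dose make up the other 6 arrays and enter the text where they show the course of a change. Every gene on the array was eligible, and 11445 of 19057 genes passed the detection filter and were tested. Values are normalised log2 signals, so a difference of 1 is a doubling, and a level of one gene's probe cannot be set against that of another.

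Panobinostat blocks histone deacetylases, the enzymes that take acetyl groups off lysines of histones and other proteins. Acetylated histone tails are typical of active promoters and enhancers, and deacetylase complexes such as NuRD, Sin3 and CoREST are known both for silencing genes and for holding stem cell enhancers in check. In embryonic stem cells a small set of transcription factors, with LIF, FGF and Nodal signals, keeps the cells undifferentiated.

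Per array, 18111, 16813 and 18082 of 45281 probes were detected at 6 h, against 17542, 17264 and 17538 at 0 h, and the mean unnormalised signal was 433.9, 321.9 and 442.5 units, against 386.5, 337.1 and 307.7. Of 12 embryonic stem cell markers, 10 had signal on each of the 6 h arrays and 11 on each of the 0 h arrays. Their summed linear signal was 33098, 33438 and 37842 at 6 h, against 54064, 49346 and 60053 at 0 h. Of 15 fibroblast markers 8 could be tested, and their sum was 6909.7, 7162.6 and 5202.3 at 6 h, against 5029.3, 5707.2 and 4619.1 at 0 h. In that list Thy1, Pdgfra and Pdgfrb rose and Loxl1 fell (Pdgfrb and Loxl1 not in all settings), while Dcn, Lum, Postn, Col1a2 and Col3a1 were too dim to test. Of 18 blood and endothelium markers 9 could be tested, with a sum of 506.33 to 554.1 at 6 h, against 692.22 to 772.88 at 0 h, and Pecam1 was the member that fell. The part of other cell types in the results below was not tested. In bulk RNA, fewer cells of a type and less RNA per cell cannot be told apart. The labels name neither a vehicle control nor untreated cells kept for 6 h, so the drug cannot be told apart from handling and time in culture.

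At an adjusted p under 0.05, 3586 genes (31.3%) differed between 6 h and 0 h. Of all genes tested, 2030 rose (17.7%) and 1556 fell (13.6%), while the median log2 change over all 11445 genes was 0.02. The change was at least 2-fold for 799 of the genes that rose and 495 of those that fell. A log2 change of 3 or more was reached by 20 risers and 5 fallers, and one of 4 or more by 4 risers and 0 fallers. The 3 values at 6 h lay apart from the 3 at 0 h for 1973 of the risers and 1517 of the fallers, and 96 called genes had overlapping values. Over all genes tested, called or not, the values lay apart for 2796 higher and 2297 lower at 6 h. Detection also turned over: 215 genes had signal above background on every 6 h array and on no 0 h array, and 81 the other way round. Scaling arrays to their 75th percentile in place of quantile normalisation moved the median of all genes by -0.11, and the split became 1667 higher and 1767 lower.

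**Figure D1:**
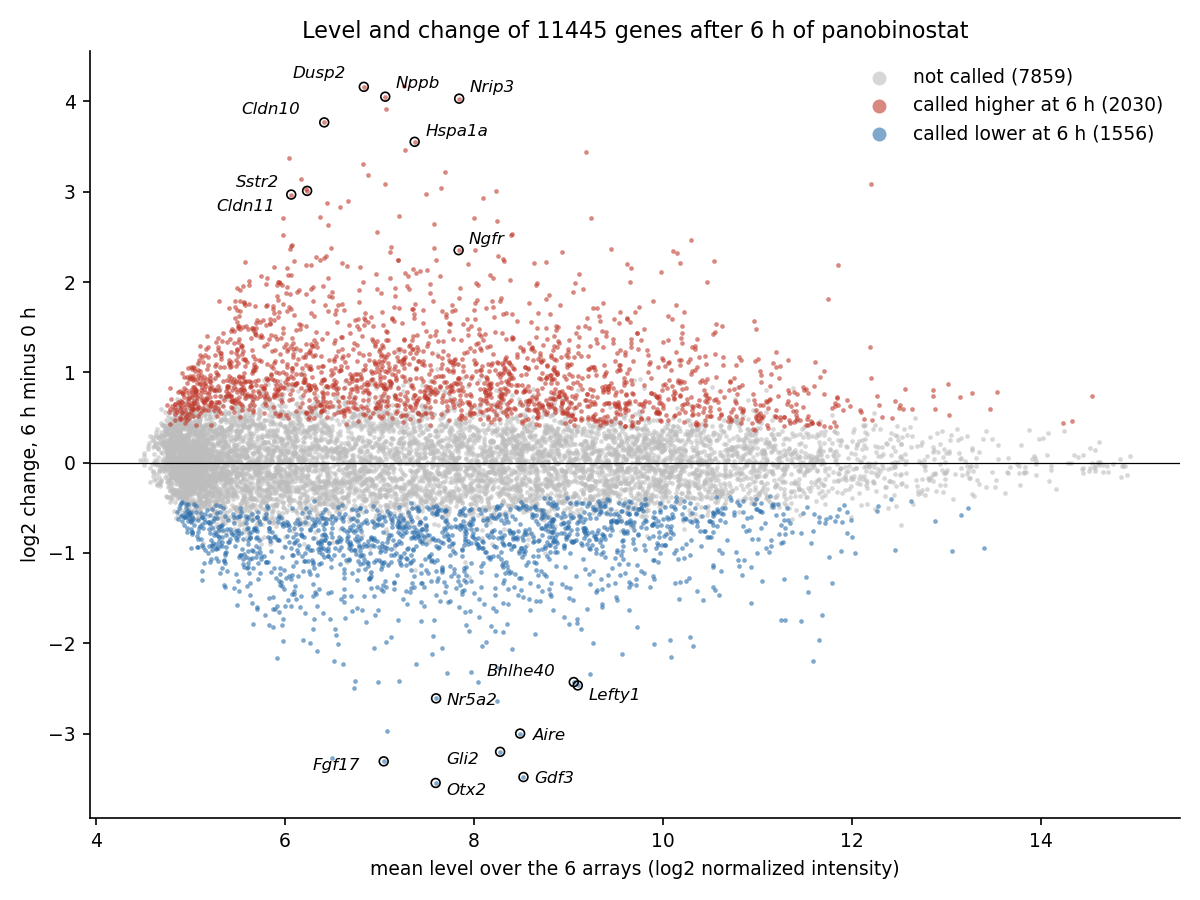
Log2 change at 6 h against 0 h (vertical axis) over the mean normalised log2 signal of both groups (horizontal axis), 1 point per gene, with 2030 genes that rose, 1556 that fell and 7859 that did not pass an adjusted p of 0.05. The rises reach further than the falls, and the labelled genes are among those described in the text.

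The strongest rises included genes that gave no signal above background in untreated cells. Cldn10, which encodes a tight junction claudin that forms pores for ions, read 8.37, 8.26 and 8.26 at 6 h, against 4.53, 4.50 and 4.55 at 0 h. Every 6 h array detected it and no 0 h array did, so its rise is a bound, at least 9.41-fold (measured means 8.30 and 4.53, adjusted p = 5.38e-08). The spread of its 3 values in either group is small beside the gap between the groups, and 2 further probes of the gene read log2 changes of 0.50 and 1.80. Cldn11, a claudin of myelin and Sertoli cell junctions, read 7.77, 7.57 and 7.30 at 6 h, against 4.53, 4.52 and 4.68 at 0 h, at least 5.60-fold higher (means 7.55 and 4.58, adjusted p = 1.3e-05). Sstr2, a receptor for the peptide hormone somatostatin, read 7.85, 7.78 and 7.59 at 6 h, against 4.64, 4.94 and 4.60 at 0 h. This was at least 6.38-fold higher (means 7.74 and 4.73, adjusted p = 1.4e-05). In each of the 3 genes the lowest 6 h array lay far above the highest 0 h array.

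Promoter stretches of 4 such genes are printed here from RefSeq (build GRCm38.p6), to show the sequence in front of genes that were off or nearly off in untreated cells. The genes were chosen after their values were seen, and each is an example that holds the letters marked in it. Each stretch runs 5′ to 3′ on the gene's own strand, with its position in the genome. Capitals mark the letters CCAAT on the opposite strand, read as ATTGG, in the first 3 stretches and TGACGTC on either strand, as 1 overlapping run, in the fourth. Cldn10 lies at chr14:118787721-118787870 on the plus strand, with ATTGG starting 118 bases before the start site. Cldn11 lies at chr3:31149770-31149919 on the plus strand, with ATTGG 66 and 35 bases before it. Hspa1b lies at chr17:34959239-34959388 on the minus strand, with ATTGG 67 bases before it, and Sstr2 at chr11:113619177-113619326 on the plus strand, with the run beginning 58 bases before it.
Cldn10: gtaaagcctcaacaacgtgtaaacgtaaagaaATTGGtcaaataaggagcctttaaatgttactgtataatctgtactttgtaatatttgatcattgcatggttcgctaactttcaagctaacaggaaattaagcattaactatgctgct
Cldn11: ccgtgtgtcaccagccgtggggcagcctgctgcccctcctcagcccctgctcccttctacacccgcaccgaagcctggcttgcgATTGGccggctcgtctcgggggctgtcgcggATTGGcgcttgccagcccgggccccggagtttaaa
Hspa1b: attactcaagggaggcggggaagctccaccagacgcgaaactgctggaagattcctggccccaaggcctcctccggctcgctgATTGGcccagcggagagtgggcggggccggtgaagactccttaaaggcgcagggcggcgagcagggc
Sstr2: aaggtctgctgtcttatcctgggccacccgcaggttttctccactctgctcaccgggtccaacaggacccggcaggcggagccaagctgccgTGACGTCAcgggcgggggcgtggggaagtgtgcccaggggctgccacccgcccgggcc
CCAAT, the core of the box bound by the factor NF-Y, was present on either strand in 37.9% of all 27025 promoters of 300 bases, and TGACGTC, the core of the cAMP response element, in 3.33%. Other genes without signal at 0 h, described below, differed in this. The windows of Dusp2, Egr2 and Col8a2 held neither sequence, and that of Mxd1 held CCAAT. A match of letters is a description of the window and not a measured binding site.

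Other genes without signal at 0 h belonged to signalling. Dusp2, a nuclear phosphatase that inactivates ERK, read 9.22, 8.47 and 9.05 at 6 h, against 4.91, 4.79 and 4.56 at 0 h, at least 14.4-fold higher (means 8.91 and 4.75, adjusted p = 7.56e-05). No other gene that gained detection had so large a bound. Egr2 and Egr3, zinc finger factors of the immediate early class, were at least 6.37-fold and 6.38-fold higher (adjusted p = 3.16e-05 and 0.000225), although a further Egr3 probe read -0.18. Mxd1, a partner of Max that represses Myc target genes, read 6.61, 6.88 and 6.85 at 6 h, against 4.71 on each 0 h array, at least 3.29-fold higher (adjusted p = 0.000183). Col8a2, a network-forming collagen, was at least 4.63-fold higher (means 7.27 and 4.86, adjusted p = 7.7e-06). Of the genes that could be measured in both groups, Ngfr, the low-affinity receptor for neurotrophins, was one of the most reproducible, with 8.96, 9.04 and 9.04 at 6 h, against 6.67, 6.81 and 6.50 at 0 h. Its log2 change was 2.35 (SE 0.16, adjusted p = 5.26e-06). C2cd4c rose by 2.88 (SE 0.21, adjusted p = 7.7e-06) and Dok4, a docking protein of receptor tyrosine kinases, by 2.73 (SE 0.23, adjusted p = 1.3e-05). Lypd3, a membrane protein of the Ly6 family, read 8.51, 8.57 and 8.35 at 6 h, against 4.83, 6.19 and 4.49 at 0 h, where 1 of 3 arrays detected it.

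**Figure D2:**
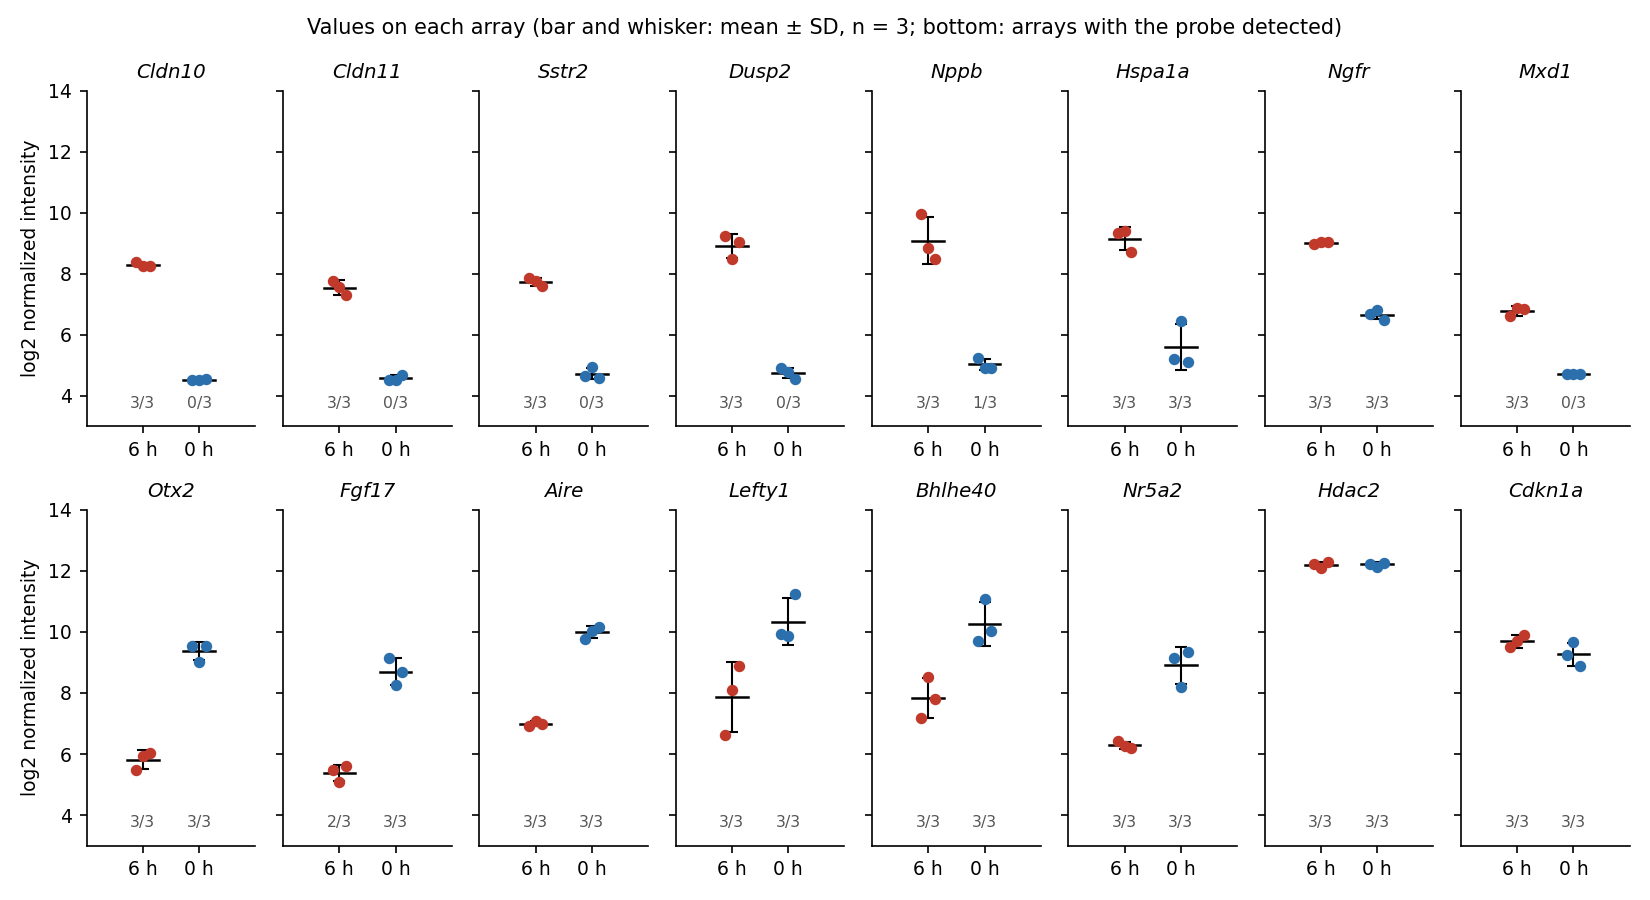
Normalised log2 signal (vertical axes) of 16 genes on each 6 h array (left) and each 0 h array (right of it), with the mean and SD of the 3 arrays and, at the bottom, the number of arrays that detected the gene. The arrays of the groups do not overlap in the genes described as risen or fallen, whereas Hdac2 and Cdkn1a overlap.

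The largest falls were seen in developmental regulators and signalling ligands. Otx2, a homeobox factor of formative pluripotency and of the anterior head, read 5.48, 5.95 and 6.03 at 6 h, against 9.54, 9.03 and 9.54 at 0 h. Its log2 change was -3.55 (SE 0.39, adjusted p = 6.09e-05), and every 6 h array lay far below every 0 h array. Fgf17, an FGF ligand, read 5.47, 5.10 and 5.60 at 6 h, against 9.13, 8.26 and 8.70 at 0 h, and 2 of 3 arrays still detected it at 6 h. Aire, a regulator known from thymic epithelium that embryonic stem cells also express, read 6.91, 7.08 and 6.97 at 6 h, against 9.77, 10.02 and 10.17 at 0 h. The log2 change was -3.31 (SE 0.23, adjusted p = 6.08e-06) for Fgf17 and -3.0 (SE 0.27, adjusted p = 1.66e-05) for Aire. Nr5a2, a nuclear receptor that can stand in for Oct4 in reprogramming, read 6.42, 6.27 and 6.19 at 6 h, against 9.16, 8.21 and 9.34 at 0 h (log2 change -2.61, SE 0.36, adjusted p = 0.00022). For these 4 genes the groups did not overlap. Vegfc, a growth factor of lymphatic vessels, fell by 2.42 on the log2 scale (SE 0.22, adjusted p = 1.67e-05). Slc28a1, a pyrimidine nucleoside transporter, fell by 2.43 (SE 0.21, adjusted p = 1.3e-05), and Dmtn, an actin-bundling protein, also by 2.43 (SE 0.26, adjusted p = 4.68e-05). Ly6g6e, a small surface protein of the Ly6 family, read 5.26, 5.57 and 5.94 at 6 h, against 8.18, 8.51 and 8.98 at 0 h (log2 change -2.97, SE 0.34, adjusted p = 6.75e-05).

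Some transcripts dropped below detection on all 3 arrays at 6 h. Atp10a, a phospholipid flippase, read 4.99, 5.07 and 4.74 at 6 h, against 6.70, 7.08 and 6.41 at 0 h, at least 3.21-fold lower (adjusted p = 0.000137). Sfmbt2, a Polycomb-related gene that is imprinted in the mouse placenta, read 4.82, 4.88 and 4.62 at 6 h, against 6.97, 6.22 and 6.47 at 0 h, at least 2.84-fold lower (adjusted p = 0.000197). Nsd1, a methyltransferase for lysine 36 of histone H3, read 4.76, 4.96 and 4.95 at 6 h, against 6.74, 5.92 and 6.88 at 0 h, at least 2.77-fold lower (adjusted p = 0.00062). The fall of Prdm14, a regulator of naive pluripotency and of the germ line, was at least 1.65-fold (6 h mean 4.47, 0 h mean 5.77, adjusted p = 0.000672). In each of the 4 genes all 6 h values lay below all 0 h values.

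**Figure D3:**
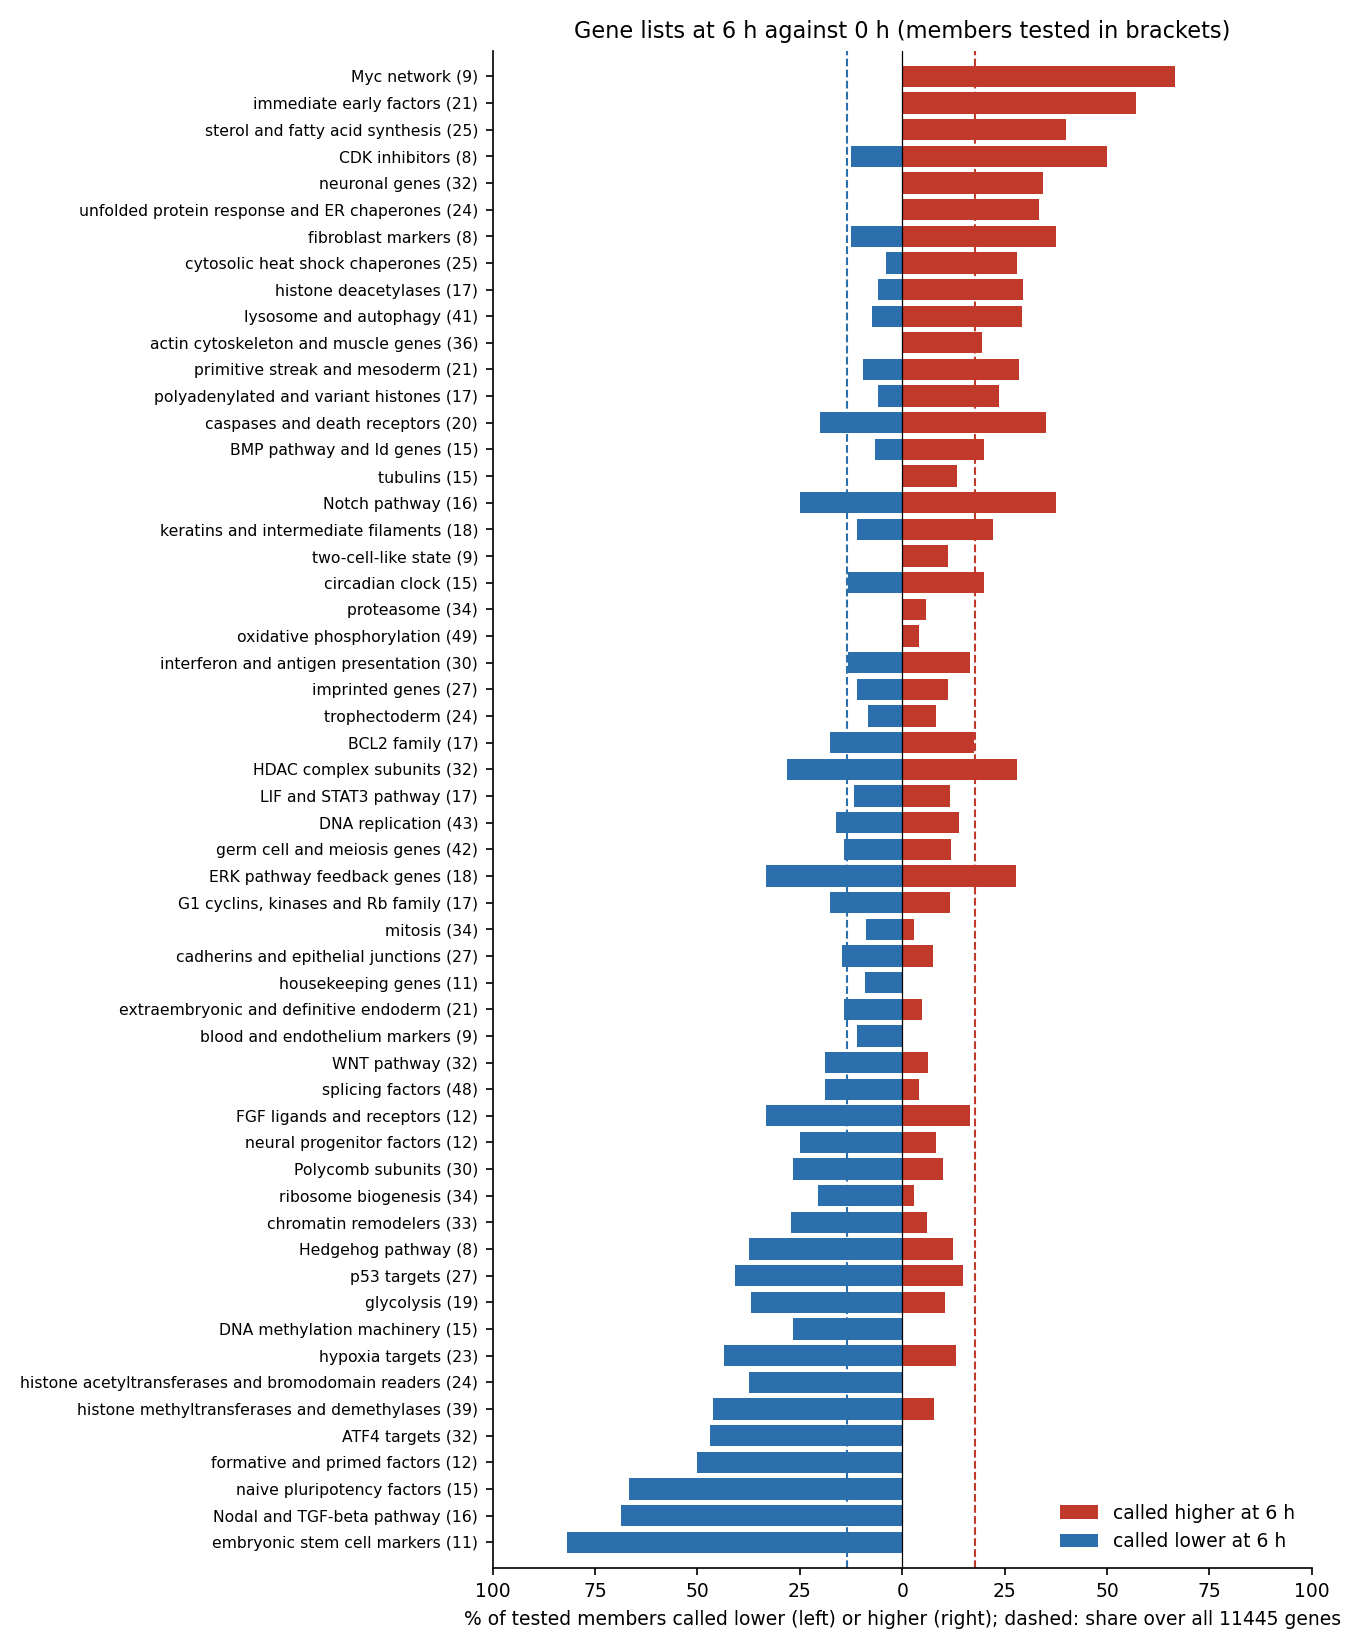
Share of the tested members that fell (left, from 0) and rose (right, from 0) at 6 h for each gene list with at least 8 tested members, in percent. Dashed lines mark the shares over all genes tested, 13.6% lower and 17.7% higher. The Nodal and TGF-beta list lies furthest on the lower side among signalling pathways, and the immediate early and Myc network lists lie on the higher side.

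Nodal is a TGF-beta family ligand that embryonic stem cells make themselves. It binds activin receptors with the co-receptor Tdgf1, signals through Smad2, Smad3 and Foxh1, and induces its own antagonists Lefty1 and Lefty2. Of 16 tested members of this pathway 11 fell and 0 rose, with a median log2 change of -0.88 (-0.80 with Foxh1 at its bound), against 0.02 over all genes. Falls were seen at every level of the pathway. Among the ligands, Gdf3 fell by 3.48 on the log2 scale (SE 0.35, adjusted p = 3.32e-05). Nodal itself read 9.75, 9.91 and 8.69 at 6 h, against 10.70, 10.48 and 10.01 at 0 h (log2 change -0.95, SE 0.28, adjusted p = 0.0206), and did not pass if 0 h replicate 1 or 6 h replicate 3 was left out or if the fit held only the 6 arrays of both groups. The co-receptor Tdgf1 read 10.82, 10.86 and 10.08 at 6 h, against 11.98, 12.38 and 12.67 at 0 h, a log2 change of -1.76 (SE 0.26, adjusted p = 0.000294).

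Downstream of the receptors, Smad3 read 7.77, 7.94 and 7.48 at 6 h, against 9.22, 9.41 and 8.71 at 0 h (log2 change -1.38, SE 0.26, adjusted p = 0.00155). Smad2 fell by 0.65 (SE 0.18, adjusted p = 0.0163), a call that was lost without 0 h replicate 3 or 6 h replicate 1. Foxh1, the DNA-binding partner of the Smads, had signal above background on no 6 h array and on every 0 h array, a fall of at least 1.60-fold (6 h mean 4.52, 0 h mean 5.72, adjusted p = 0.000131). The antagonist Lefty1 read 6.64, 8.09 and 8.87 at 6 h, against 9.92, 9.85 and 11.23 at 0 h (log2 change -2.47, SE 0.53, adjusted p = 0.00371). Its relative Lefty2 fell by 1.69 (SE 0.53, adjusted p = 0.0278) and lost the call in 6 of 23 alternative settings, among them the authors' normalised table. Tgif1, a homeobox repressor of Smad-driven transcription, read 9.15, 9.48 and 9.28 at 6 h, against 11.44, 11.21 and 11.34 at 0 h, with a log2 change of -2.03 (SE 0.22, adjusted p = 5.25e-05). The members that did not pass were Ski at -0.54, Gdf1 at -0.21, Tgfb2 at 0.08, Tgfbr1 at 0.29 and Tgfbr2 at 0.40, so the receptors for TGF-beta itself were not among those that fell. Leaving out single arrays gave 8 to 12 fallers in this list.

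Related pathways moved less uniformly. In the Hedgehog pathway 3 of 8 tested members fell and 1 rose. The transcription factor Gli2 fell by 3.20 (SE 0.32, adjusted p = 3.1e-05), although a further probe read -0.29, and the receptor Ptch1 read 6.37, 6.16 and 6.96 at 6 h, against 7.88, 7.62 and 8.52 at 0 h (log2 change -1.51, SE 0.31, adjusted p = 0.00265). The signal transducer Smo fell by 0.94 (SE 0.22, adjusted p = 0.00573), and the ligand Dhh, which 2 of the 0 h arrays detected, rose by 1.27 (SE 0.27, adjusted p = 0.00312). Of 12 FGF ligands, receptors and adaptors 4 fell, Fgf17, Fgf15, Frs3 and Fgf21, and 2 rose, Fgf8 and Fgfrl1. These were 33.3% and 16.7%, against 13.6% and 17.7% of all genes tested. The call of Fgf21 was lost in 3 settings and that of Fgf8 in 10 of 22, among them the authors' normalised table. The WNT pathway had 6 fallers and 2 risers among 32 tested genes (18.75% and 6.25%, against 13.6% and 17.7% of all genes tested). It had 3 fallers without 0 h replicate 1 or 6 h replicate 1, and 1 riser without 6 h replicate 2. Its receptor Fzd7 fell by 0.95 (SE 0.16, adjusted p = 0.000816) and Ctnnbip1, which keeps beta-catenin from its partner TCF, rose by 1.60 (SE 0.19, adjusted p = 8.71e-05). In the BMP pathway 3 of 15 rose, a share near the 17.7% of all genes tested, and 1 fell (6.67%, against 13.6%). With the replicate number as a block 6 rose and 3 fell. Without 6 h replicate 3, 5 rose, and 2 fell if 18 h replicate 1 or 2, or 0 h replicate 3, was omitted. Id4 and Id1 are targets of BMP that block helix-loop-helix factors: Id4 rose by 1.30 (SE 0.28, adjusted p = 0.0038) and Id1 by 1.51 (SE 0.40, adjusted p = 0.0119, not called without 6 h replicate 1).

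Feedback genes of the ERK pathway went both ways. The dual-specificity phosphatases Dusp2, Dusp5, Dusp10 and Dusp6 and the EGF receptor inhibitor Errfi1 rose, whereas Dusp16, Dusp7, Spred1, Spred2, Spry2 and Spry4 fell, 5 risers and 6 fallers of 18 tested genes (8 risers with the replicate block). Dusp5 read 9.12, 8.88 and 9.27 at 6 h, against 7.36, 7.41 and 7.11 at 0 h, a log2 change of 1.80 (SE 0.20, adjusted p = 5.65e-05). Dusp16, a phosphatase of the stress kinases JNK and p38, averaged 8.84 ± 0.04 at 6 h and 9.85 ± 0.02 at 0 h (SD, n = 3 each), with a log2 change of -1.01 (SE 0.17, adjusted p = 0.000685). The fall of Spred2, a membrane-bound inhibitor of Raf activation, was at least 1.56-fold (6 h mean 4.79, 0 h mean 5.68, adjusted p = 0.00118). In both directions the arrays of the 2 groups did not overlap for these 3 genes.

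In the Notch pathway 6 of 16 tested genes rose and 4 fell. Hey1, a target that represses differentiation factors, read 8.73, 8.63 and 8.80 at 6 h, against 6.95, 7.60 and 6.83 at 0 h (log2 change 1.59, SE 0.23, adjusted p = 0.00028). The receptor Notch4 fell by 1.04 (SE 0.17, adjusted p = 0.000644) and Notch3 by 0.80 (SE 0.21, adjusted p = 0.0105), the ligand Jag1 fell by 0.71 (SE 0.21, adjusted p = 0.0195), and Hes1 did not pass at -0.31. Leaving out 0 h replicate 3 or 6 h replicate 1 left 3 risers, and leaving out 6 h replicate 1 left 2 fallers and ended the calls of Notch3 and Jag1. The Myc network had 6 risers and 0 fallers among 9 tested genes, with a median of 0.97 (1.14 with Mxd1 at its bound). The risers were the Max and Mlx partners Mxd1, Mxd4, Mxi1, Mlx, Mlxip and Mlxipl, most of which oppose Myc or sense glucose. Mlxip rose by 1.37 (SE 0.19, adjusted p = 0.000212), and Mxd4 read 8.87, 8.87 and 8.67 at 6 h, against 7.21, 7.85 and 6.56 at 0 h (log2 change 1.59, SE 0.29, adjusted p = 0.0013), with a further probe at -0.13. Mga, Mnt and Mycl did not pass, at -0.24, 0.02 and 0.19, and Myc itself was not tested.

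Immediate early genes, which growth signals switch on through the serum response factor Srf, rose in 12 of 21 tested cases and fell in 0. Srf itself read 10.67, 10.81 and 10.54 at 6 h, against 9.66, 9.09 and 9.26 at 0 h, a log2 change of 1.34 (SE 0.18, adjusted p = 0.000186). Arc, a neuronal immediate early gene, read 10.30, 9.18 and 9.73 at 6 h, against 6.99, 6.71 and 6.49 at 0 h (log2 change 3.01, SE 0.41, adjusted p = 0.000204). Zfp36, which marks messenger RNAs with AU-rich elements for decay, read 11.24, 11.21 and 11.40 at 6 h, against 8.79, 10.01 and 8.42 at 0 h, 2.21 higher on the log2 scale (SE 0.36, adjusted p = 0.000624). The matricellular gene Ccn2 rose by 1.81 (SE 0.26, adjusted p = 0.000262) and Ccn1 by 1.97 (SE 0.33, adjusted p = 0.000814). Jun and Atf3 did not pass, at 0.61 and 0.87. Of 36 actin cytoskeleton and muscle genes 7 rose (19.4%, against 17.7% of all genes tested) and 0 fell, among them the focal adhesion protein vinculin (Vcl), which read 13.03, 12.85 and 12.60 at 6 h, against 11.65, 11.69 and 11.32 at 0 h (log2 change 1.28, SE 0.17, adjusted p = 0.000175). That list had 4 risers and 1 faller without 6 h replicate 1, 1 faller without 0 h replicate 3, and 11 risers with the replicate block. Its largest rise was that of Nppb, the precursor of brain natriuretic peptide, with 9.96, 8.83 and 8.47 at 6 h, against 5.25, 4.93 and 4.92 at 0 h. Nppb was detected on 1 of 3 arrays at 0 h.

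Among 25 cytosolic chaperones 7 rose, 1 fell and 17 did not pass, and the 7 were the Hsp70 genes Hspa1a, Hspa1b and Hspa2, the co-chaperones Dnajb1, Dnajb2 and Dnajb4, and Hsph1. Hspa1a read 9.33, 9.41 and 8.71 at 6 h, against 5.20, 6.46 and 5.12 at 0 h (log2 change 3.55, SE 0.47, adjusted p = 0.000174), and a further probe read 0.48. Hspa1b read 8.63, 8.79 and 8.01 at 6 h, against 4.95, 6.02 and 4.90 at 0 h (log2 change 3.19, SE 0.37, adjusted p = 7.64e-05), and 1 of the 0 h arrays detected it. Both genes are near-identical copies, so their probes may share signal and the split between them is uncertain. Hspa2, a testis-enriched Hsp70, read 11.34, 11.43 and 11.15 at 6 h, against 9.05, 9.46 and 8.46 at 0 h (log2 change 2.32, SE 0.29, adjusted p = 0.000133). The chaperone genes Hsp90aa1, Hspd1, Hspb1 and Hspa8 did not pass, at -0.22, -0.10, 0.29 and 0.37, while the small heat shock protein Hspb6 fell by 1.51 (SE 0.27, adjusted p = 0.00107).

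Of 24 genes of the unfolded protein response 8 rose and 0 fell. Hspa5 (BiP), the main chaperone of the endoplasmic reticulum, read 10.44, 10.03 and 9.99 at 6 h, against 8.29, 7.86 and 8.05 at 0 h, a log2 change of 2.09 (SE 0.21, adjusted p = 3.16e-05). Creld2, a secreted ER stress protein, rose by 1.51 (SE 0.18, adjusted p = 9.25e-05), the ER stress sensor Ern1 by 1.42 (SE 0.22, adjusted p = 0.000433) and the disulfide isomerase Pdia6 by 1.23 (SE 0.18, adjusted p = 0.000277), although a further Pdia6 probe read -0.27. Ddit3, Xbp1 and Herpud1, other genes of this response, did not pass, at -0.14, -0.23 and -0.31. Of 32 targets of Atf4, the factor of the amino acid response, 15 fell, 0 rose and 17 did not pass, with a median of -0.45. Atf4 itself read 10.62, 10.84 and 10.99 at 6 h, against 12.28, 11.98 and 12.49 at 0 h (log2 change -1.43, SE 0.17, adjusted p = 8.71e-05). Trib3, a pseudokinase that dampens Akt and Atf4, read 8.86, 8.84 and 8.77 at 6 h, against 10.42, 10.42 and 11.07 at 0 h (log2 change -1.82, SE 0.18, adjusted p = 3.16e-05). Nupr1, a small stress-induced chromatin protein, read 6.61, 7.11 and 7.06 at 6 h, against 8.99, 9.54 and 10.17 at 0 h, and fell by 2.64 (SE 0.25, adjusted p = 2.58e-05). The secreted glycoprotein Stc2 fell by 2.42 (SE 0.26, adjusted p = 4.94e-05). The amino acid enzymes Asns, Phgdh and Psat1, also on that list, did not pass, at -0.27, -0.30 and -0.20.

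Targets of the hypoxia factor Hif1a fell in 10 of 23 tested cases and rose in 3, with a median of -0.62 (-0.44 with undetected members at their bound, and -0.211 in the authors' normalised table), and 6 fell without 6 h replicate 1. Bhlhe40, a helix-loop-helix repressor shared by the hypoxia response and the clock, read 7.19, 8.51 and 7.82 at 6 h, against 9.70, 11.08 and 10.04 at 0 h, a log2 change of -2.43 (SE 0.43, adjusted p = 0.000973). Egln3, the prolyl hydroxylase that marks Hif1a for decay, fell by 1.49 (SE 0.30, adjusted p = 0.00264) and Vegfa by 0.84 (SE 0.23, adjusted p = 0.0125, not called without 6 h replicate 1). Pfkfb4, which makes the activator of phosphofructokinase, went the other way with 8.33, 8.39 and 8.56 at 6 h, against 6.39, 6.73 and 5.72 at 0 h, and a log2 change of 2.14 (SE 0.29, adjusted p = 0.000206). Among 15 clock genes, Arntl (Bmal1), the activator at the centre of the clock, read 9.92, 9.69 and 9.93 at 6 h, against 8.26, 8.51 and 8.27 at 0 h (log2 change 1.50, SE 0.18, adjusted p = 8.71e-05). The repressor Per2 rose by 2.22 (SE 0.36, adjusted p = 0.000654), detected on 2 of 3 arrays at 0 h. Its 2 further probes read between -0.13 and 1.88. Cry2 rose in most settings but not in the authors' normalised table, and Csnk1d, the kinase that destabilises Per proteins, fell by 1.41 (SE 0.19, adjusted p = 0.000171). The clock list had 3 risers and 2 fallers of 15, shares near the 17.7% and 13.6% of all genes tested. Its median was 0.007 and turned negative in several settings, among them 75th percentile scaling (-0.139).

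The p53 targets fell in 11 of 27 cases and rose in 4 (2 without 6 h replicate 1). The fallers included Bbc3 (Puma), an activator of cell death, at -1.26 (SE 0.27, adjusted p = 0.00362), and Phlda3, an inhibitor of Akt, at -1.28 (SE 0.30, adjusted p = 0.00568). The call of Bbc3 was lost when the probes of a gene were averaged. Rrm2b, the p53-induced ribonucleotide reductase subunit, rose by 1.01 (SE 0.21, adjusted p = 0.00296). Mdm2 and Cdkn1a, both classical targets, did not pass. Cdkn1a (p21) read 9.49, 9.69 and 9.91 at 6 h, against 9.25, 9.66 and 8.89 at 0 h, with overlapping groups and a log2 change of 0.43 (SE 0.20, adjusted p = 0.118). Of 23 other settings, the one without 0 h replicate 2 called it.

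Within the cell death machinery the BH3-only genes Bik and Bad and the initiator caspase Casp9 rose. Bik read 8.95, 9.04 and 9.20 at 6 h, against 7.13, 7.60 and 7.28 at 0 h (log2 change 1.73, SE 0.22, adjusted p = 0.000131). Casp9 read 9.74, 9.96 and 10.19 at 6 h, against 8.20, 8.73 and 8.47 at 0 h (log2 change 1.50, SE 0.19, adjusted p = 0.000115), and a further probe read 0.41. Bad rose by 1.21 (SE 0.24, adjusted p = 0.00227) and the necroptosis kinase Ripk3 by 1.05 (SE 0.24, adjusted p = 0.00574). The survival factor Mcl1 fell by 0.64 (SE 0.17, adjusted p = 0.0121) and Dapk1, a death-associated kinase, by 1.59 (SE 0.21, adjusted p = 0.000168). The BH3-only gene Bbc3, described above, went the other way from Bik and Bad, and the family member Bok also fell (call lost in 4 settings). Counted over the lists, 3 BCL2 family genes rose and 3 fell of 17 (17.6% each). These shares lay near those of all genes tested, 17.7% and 13.6%. Of 20 caspase and death receptor genes 7 rose and 4 fell (8 fell with the replicate block), shares above those of all genes tested.

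Panobinostat acts on the zinc-dependent deacetylases. Of these, Hdac2 read 12.22, 12.09 and 12.28 at 6 h, against 12.24, 12.13 and 12.25 at 0 h, a log2 change of -0.01 (SE 0.13, adjusted p = 0.957), and Hdac1 was not tested. Among 17 tested deacetylases, sirtuins included, 5 rose and 1 fell (29.4% and 5.88%, against 17.7% and 13.6% of all genes tested). The count of risers was 3 if 6 h replicate 1 or 2, or 0 h replicate 1 or 3, was left out. Without 0 h replicate 3, 2 fell. The risers included the zinc-dependent Hdac3, Hdac5 and Hdac11, whose calls were lost in 9, 1 and 4 settings. Sirt7, a NAD-dependent sirtuin of the nucleolus, read 10.73, 10.95 and 11.01 at 6 h, against 9.48, 9.38 and 9.05 at 0 h (log2 change 1.59, SE 0.19, adjusted p = 8.08e-05). Hdac4, a class IIa deacetylase, read 6.18, 6.32 and 6.02 at 6 h, against 7.41, 7.29 and 7.39 at 0 h (log2 change -1.19, SE 0.16, adjusted p = 0.00021). Of 32 subunits of deacetylase complexes 9 rose and 9 fell. The fallers included Mta3 and Mbd3 of NuRD, Rcor2 of CoREST and the NCoR subunits Tbl1x and Tbl1xr1, with log2 changes of -1.46, -1.0, -1.39, -1.31 and -1.54 (adjusted p = 0.000385, 0.00432, 0.00105, 0.000648 and 0.00548). The risers included Gps2 of NCoR at 1.24 (SE 0.23, adjusted p = 0.00145), Brms1 of Sin3 at 1.09 (SE 0.28, adjusted p = 0.00976) and Chd4, the NuRD ATPase, at 0.62 (SE 0.15, adjusted p = 0.00623).

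Enzymes that write and erase histone methylation fell more often than they rose, 18 against 3 of 39 tested genes, with a median of -0.54. Leaving out single arrays gave 13 to 19 fallers. Kdm4c, a demethylase of lysine 9, read 8.02, 8.09 and 7.94 at 6 h, against 9.44, 9.62 and 9.88 at 0 h (log2 change -1.63, SE 0.26, adjusted p = 0.000493). Dot1l, the methyltransferase of lysine 79, read 6.07, 5.53 and 5.96 at 6 h, against 7.52, 7.37 and 7.29 at 0 h (log2 change -1.54, SE 0.22, adjusted p = 0.000283). Kdm6a (Utx), a demethylase of lysine 27, fell by 1.40 (SE 0.26, adjusted p = 0.00136) and its further probe read -1.46. Kdm1b, a demethylase of lysine 4 related to Kdm1a, went against most of the list with 10.29, 9.86 and 10.21 at 6 h, against 8.69, 8.86 and 8.47 at 0 h, and rose by 1.45 (SE 0.18, adjusted p = 0.000122). The other risers, Setd2 and Nsd3, each lost the call in several settings, and 1 riser was left if 6 h replicate 1 or 3, or 0 h replicate 2, was omitted. Chromatin remodelers had 9 fallers and 2 risers among 33, with 0 risers without 6 h replicate 1 and 1 if 6 h replicate 2 or 3, or 0 h replicate 3, was omitted. The largest fall was that of Arid1a, the DNA-binding subunit of BAF, with 6.36, 7.04 and 6.71 at 6 h, against 8.79, 8.14 and 8.42 at 0 h (log2 change -1.75, SE 0.26, adjusted p = 0.000339). Its relative Arid2 fell by 1.57 (SE 0.32, adjusted p = 0.00277), whereas Smarca4, the BAF ATPase of embryonic stem cells, did not pass at -0.33. Linker histone H1f10 read 10.19, 10.20 and 10.37 at 6 h, against 8.34, 8.72 and 8.39 at 0 h, a log2 change of 1.77 (SE 0.15, adjusted p = 1.49e-05), and H1f2 rose by 1.26 (SE 0.29, adjusted p = 0.00573). The list of 17 polyadenylated and variant histones had 4 risers (2 with 75th percentile scaling) and 1 faller, which was lost in several settings.

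Of 8 tested CDK inhibitors 4 rose and 1 fell. Cdkn3, a phosphatase of CDKs, read 10.51, 10.35 and 10.52 at 6 h, against 9.07, 9.00 and 9.54 at 0 h (log2 change 1.25, SE 0.19, adjusted p = 0.000381), and Cdkn2b (p15) rose by 1.18 (SE 0.17, adjusted p = 0.000292). Cdkn1b (p27) read 4.76, 5.24 and 4.69 at 6 h, with 1 array above background, against 6.34, 6.72 and 6.02 at 0 h (log2 change -1.46, SE 0.27, adjusted p = 0.00121). Cdkn2a and Cdkn2c, the remaining risers, lost their calls in several settings, so that 2 risers were left without 0 h replicate 1 or 6 h replicate 1. Cyclin D1 (Ccnd1) read 9.24, 9.46 and 9.09 at 6 h, against 11.05, 10.45 and 10.17 at 0 h (log2 change -1.29, SE 0.28, adjusted p = 0.00347). DNA replication genes divided into 6 risers and 7 fallers of 43, with 13 fallers in the authors' normalised table. These were 13.95% and 16.28%, near the 17.7% and 13.6% of all genes tested, and the list median was -0.096. The helicase subunit Mcm3 fell by 1.18 (SE 0.18, adjusted p = 0.000427), and Cdc6, which loads that helicase, read 10.51, 10.38 and 10.42 at 6 h, against 9.74, 9.34 and 9.64 at 0 h (log2 change 0.86, SE 0.17, adjusted p = 0.00181). Mitosis genes had 1 riser and 3 fallers of 34, or 2.94% and 8.82%, below the shares over all genes tested. The counts were 4 and 6 with the replicate block, and 1 to 3 and 2 to 5 when single arrays were left out. Among the fallers the mitotic kinase Plk1 stood at -1.08 (SE 0.18, adjusted p = 0.000615). Oxidative phosphorylation had 2 risers of 49, or 4.08% (5 with the replicate block, and 1 if 6 h replicate 1 or 2, or 0 h replicate 3, was left out). The proteasome had 2 of 34, or 5.88% (5 without background correction), and each list had 0 fallers.

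Neuronal genes rose in 11 of 32 tested cases and fell in 0, with a median of 0.41. Elavl3, an RNA-binding protein of neurons, read 8.65, 8.59 and 8.32 at 6 h, against 5.99, 7.25 and 6.40 at 0 h (log2 change 1.97, SE 0.30, adjusted p = 0.000373). Rab3a, a GTPase of synaptic vesicles, read 7.80, 8.07 and 7.93 at 6 h, against 5.55, 6.56 and 5.92 at 0 h (log2 change 1.92, SE 0.31, adjusted p = 0.000508), and its further probe read 2.26. The surface antigen Thy1 rose by 1.82 (SE 0.30, adjusted p = 0.000723) and Stx1a, a synaptic SNARE protein, by 1.26 (SE 0.19, adjusted p = 0.000409). The list had 6 risers without 0 h replicate 3 or 6 h replicate 1, and 7 without 6 h replicate 2. Of 12 factors of neural progenitors 3 fell and 1 rose, with 1 faller if 6 h replicate 1 or 0 h replicate 1 was left out and 0 to 3 risers over the settings. Among them Neurod1, a factor of neuronal differentiation, fell by 1.05 (SE 0.21, adjusted p = 0.00209).

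Of 21 primitive streak and mesoderm genes 6 rose and 2 fell, with 1 faller if 6 h replicate 1 or 0 h replicate 1 was left out and 4 if 0 h replicate 3 was. Isl1, a homeobox factor of heart and motor neurons, read 7.31, 7.12 and 6.43 at 6 h, against 5.22, 5.08 and 4.92 at 0 h, where 1 of 3 arrays detected it (log2 change 1.88, SE 0.29, adjusted p = 0.000412). Snai1, the repressor of epithelial genes, read 7.60, 7.66 and 7.15 at 6 h, against 6.24, 5.81 and 5.29 at 0 h (log2 change 1.69, SE 0.32, adjusted p = 0.00155), and its relative Snai2 rose by 1.30 (SE 0.19, adjusted p = 0.000311). Cdh1, the epithelial cadherin that Snai1 can repress, did not pass at -0.06. Meis2, a homeobox cofactor, fell by 1.07 (SE 0.19, adjusted p = 0.00108). Gata2, on the trophectoderm list and also a blood factor, read 8.72, 8.44 and 7.84 at 6 h, against 6.80, 6.30 and 5.69 at 0 h (log2 change 2.07, SE 0.40, adjusted p = 0.00195). The trophectoderm factors Cdx2, Eomes and Gata3 did not pass, at -0.20, -0.25 and -0.21, and the summed signal of the trophectoderm list was 7989.4 to 14016 at 6 h, against 8743.1 to 13871 at 0 h. Among junction genes Cldn10 and Cldn11 were the 2 risers, while connexin 43 (Gja1) read 10.63, 11.03 and 10.35 at 6 h, against 12.68, 12.88 and 12.33 at 0 h (log2 change -1.96, SE 0.28, adjusted p = 0.000257). The junction adhesion molecule Jam2 fell by 1.96 as well (SE 0.26, adjusted p = 0.000169). This list of 27 genes had 4 fallers (14.8%, against 13.6% of all genes tested), and 5 risers with the replicate block or without 0 h replicate 2.

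Germ cell genes gave 5 risers and 6 fallers of 42 (11.9% and 14.3%, against 17.7% and 13.6% of all genes tested). Tex19.1, which protects germ cells and placenta from retrotransposons, read 13.15, 12.72 and 12.96 at 6 h, against 11.28, 10.33 and 10.66 at 0 h (log2 change 2.19, SE 0.32, adjusted p = 0.000301). The receptor Kit fell by 0.91 (SE 0.22, adjusted p = 0.00656). Lysosome and autophagy genes rose in 12 of 41 cases and fell in 3 (1 if 6 h replicate 1 or 0 h replicate 2 was left out). Atg12, a ubiquitin-like protein of autophagosome formation, read 11.20, 11.20 and 11.32 at 6 h, against 9.75, 10.18 and 9.53 at 0 h (log2 change 1.42, SE 0.19, adjusted p = 0.000201). The autophagosome protein Map1lc3b and the cargo receptor Sqstm1 both rose by 1.08 (SE 0.15 and 0.20, adjusted p = 0.000229 and 0.00127). Tfeb, a transcription factor of lysosomal genes, was detected on 3 arrays at 6 h and on 0 at 0 h, at least 1.33-fold higher (adjusted p = 0.0108). The metal-binding protein Mt2 rose by 1.41 (SE 0.19, adjusted p = 0.000175), and the zinc importer Slc39a10 fell by 1.60 (SE 0.27, adjusted p = 0.000731). Of the 15 naive pluripotency factors tested 10 fell and 0 rose. Klf2, a zinc finger factor of the naive state, read 9.39, 9.52 and 10.07 at 6 h, against 11.38, 10.88 and 11.28 at 0 h (log2 change -1.52, SE 0.23, adjusted p = 0.000375). Tbx3, a T-box factor downstream of LIF, read 6.93, 6.89 and 7.57 at 6 h, against 9.47, 8.63 and 9.25 at 0 h (log2 change -1.99, SE 0.28, adjusted p = 0.000212).

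The 2 h and 18 h arrays place the 6 h values in time. Between 6 h and 2 h 1496 genes (13.1%) differed, 881 higher and 615 lower at 6 h, and the count was 725, 832 and 974 if 2 h replicate 1, 2 or 3 was left out, and 527 and 763 if 6 h replicate 1 or 2 was left out. Between 18 h and 6 h 1275 genes (11.1%) differed, 705 higher and 570 lower at 18 h, and 2074 with the replicate block. That count was 584, 675 and 530 if 6 h replicate 1, 2 or 3 was left out, and 672 if 18 h replicate 2 was. Genes that differed from 0 h and in the same direction from 2 h numbered 777 higher and 568 lower at 6 h.

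Some genes went on changing after 6 h. Cldn10 averaged 4.53 ± 0.02 at 0 h, 5.66 ± 0.27 at 2 h, 8.30 ± 0.06 at 6 h and 9.15 ± 0.20 at 18 h (SD, n = 3 each), and the 18 h level exceeded the 6 h level by 0.85 (adjusted p = 0.00751). Cldn11 exceeded its 6 h level by 1.32 (adjusted p = 0.00598). Slc7a3, a transporter of basic amino acids on the Atf4 list, averaged 11.92 ± 0.38 at 0 h, 11.72 ± 0.34 at 2 h, 10.64 ± 0.26 at 6 h and 8.64 ± 0.32 at 18 h, with an 18 h minus 6 h difference of -2.0 (adjusted p = 0.000534). Jam2 and Grb10, an adaptor that restrains growth factor signalling, were lower at 18 h than at 6 h, with differences of -1.45 (adjusted p = 0.00486) and -1.81 (adjusted p = 0.00019). The Jam2 difference did not pass when the probes of a gene were averaged. Pou5f1 (Oct4) showed a small change at 6 h, -0.50 (SE 0.17, adjusted p = 0.0437), which lost its call in 10 settings, and was lower at 18 h than at 6 h, with a difference of -1.78 (adjusted p = 0.00019).

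Other changes from 0 h were smaller at 18 h than at 6 h or had turned round, and some had reached much of their size by 2 h. Aire averaged 9.99 ± 0.20 at 0 h, 8.79 ± 0.28 at 2 h, 6.99 ± 0.09 at 6 h and 9.05 ± 0.67 at 18 h, and the 18 h level exceeded the 6 h level by 2.06 (SE 0.27, adjusted p = 0.000805). Bhlhe40 averaged 10.27 ± 0.72 at 0 h, 8.42 ± 0.49 at 2 h, 7.84 ± 0.66 at 6 h and 10.64 ± 0.68 at 18 h, with an 18 h minus 6 h difference of 2.80 (adjusted p = 0.00213). Dnajb12, a co-chaperone of the ER membrane, and Dot1l were higher at 18 h than at 6 h by 1.31 (adjusted p = 0.000691) and 1.27 (adjusted p = 0.00455). Among risers, Srf averaged 9.34 ± 0.29 at 0 h, 10.35 ± 0.13 at 2 h, 10.67 ± 0.14 at 6 h and 9.22 ± 0.23 at 18 h, a difference of -1.46 between 18 h and 6 h (adjusted p = 0.0006). Hspa5 gave -1.36 (adjusted p = 0.00219), Casp9 -1.14 (adjusted p = 0.00283) and Bik -1.18 (adjusted p = 0.00582) for the same difference. Cdc6 averaged 9.57 ± 0.20 at 0 h, 10.43 ± 0.02 at 2 h, 10.44 ± 0.07 at 6 h and 8.88 ± 0.28 at 18 h, with an 18 h minus 6 h difference of -1.55 (adjusted p = 0.000273). Arc and Egr4 also lay below their 6 h levels at 18 h, with differences of -1.71 (adjusted p = 0.0204) and -1.81 (adjusted p = 0.0485). Arc did not pass in 4 settings that each left out 1 array.

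**Figure D4:**
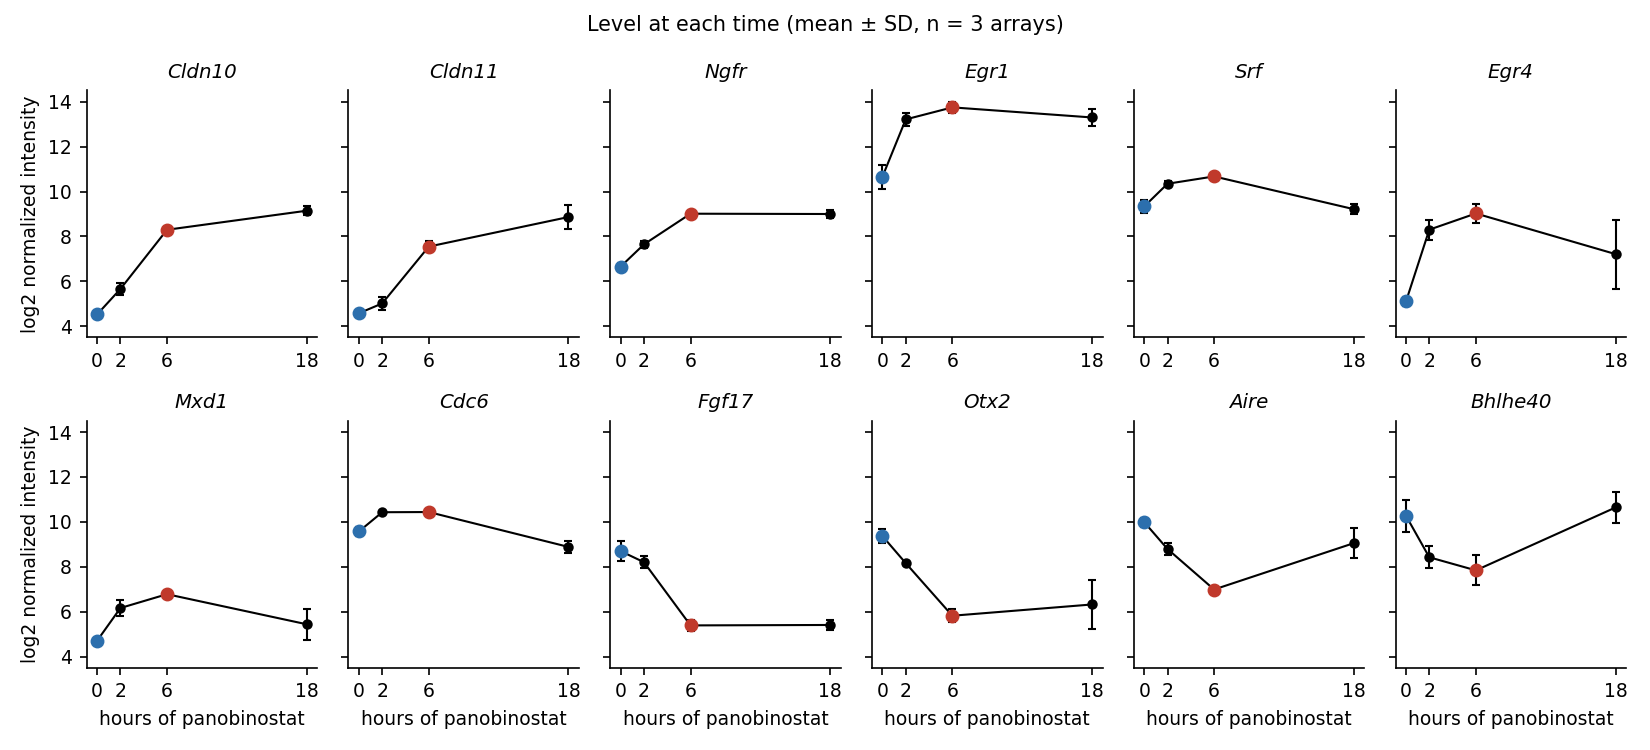
Mean normalised log2 signal with its SD over 3 arrays (vertical axes) at 0, 2, 6 and 18 h (horizontal axes) for 12 genes. Cldn10 and Cldn11 are highest at 18 h, Srf, Mxd1 and Cdc6 have lower means at 18 h than at 6 h, Aire and Bhlhe40 have their lowest mean at 6 h, and Fgf17 and Otx2 remain low at 18 h.

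Promoter sequences were available for 1645 genes that rose, 1272 that fell and 9250 of all genes tested. Each window spans 250 bases before and 50 after the start site listed by RefSeq (GRCm38.p6), and 11 motifs were searched on both strands. CCAAT, the letters capitalised in the Cldn10, Cldn11 and Hspa1b stretches, was found in 45.0% of the promoters of genes that rose, 34.7% of those that fell and 39.0% of all tested. GGGCGG, the core of the GC box bound by Sp1, was found in 72.3% of risers, 63.1% of fallers and 63.8% of all tested. The CArG box of Srf was found in 1.88% of risers, 0.708% of fallers and 1.48% of all tested, and TGACGTC in 6.50%, 4.80% and 5.52%. AAGATGG, the core bound by YY1, was present in 5.78% of risers, 7.86% of fallers and 7.38% of all tested, and ATGCAAA, part of the octamer bound by Oct4, in 3.16%, 4.40% and 3.45%. TATAAA differed little, with 7.42%, 6.84% and 7.82%. The median GC content was 62.0% in risers, 60.7% in fallers and 60.7% in all tested. With any listed start of a gene counted, CCAAT was found in 49.3% of risers, 39.9% of fallers and 43.1% of all tested, and GGGCGG in 75.7%, 67.7% and 67.7%. These shares are descriptions without a test, the sets differ in base composition, and nothing follows from them about binding.

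**Figure D5:**
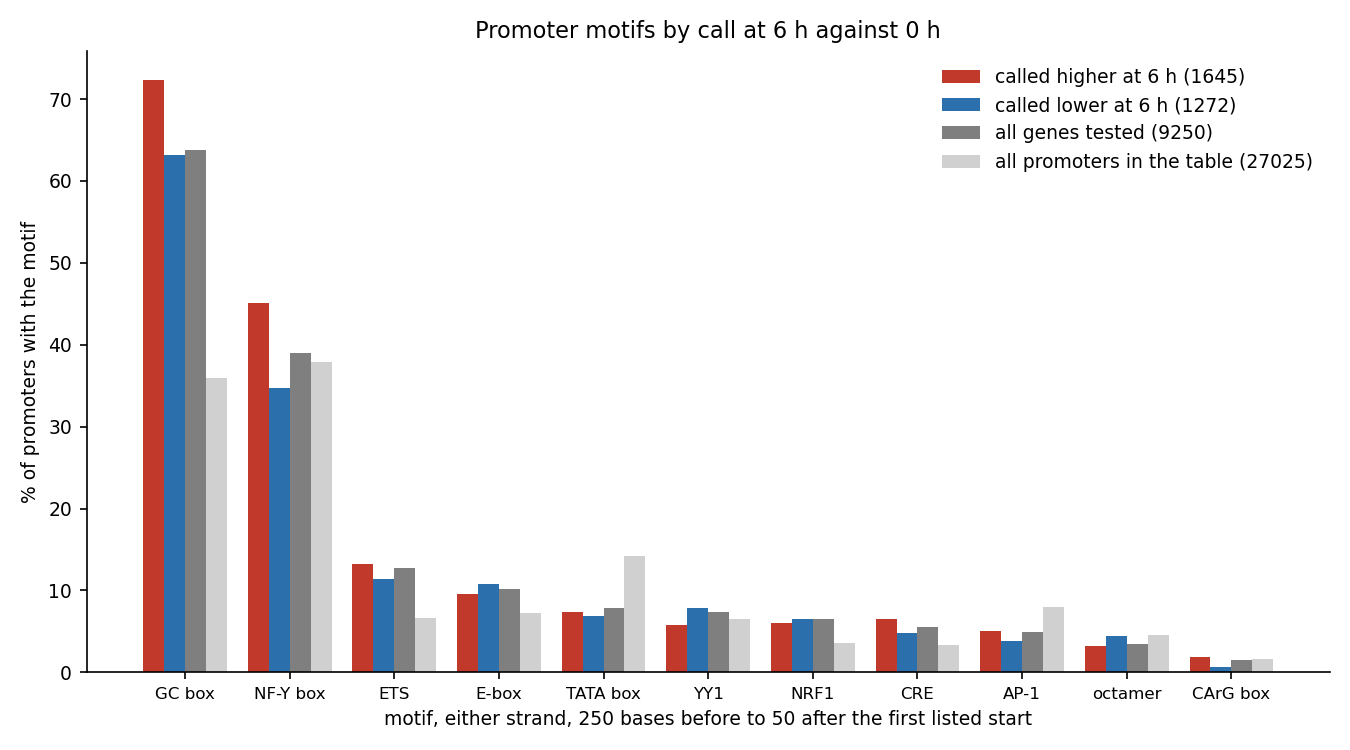
Share of promoters, in percent, that hold each of 11 motifs among genes that rose, genes that fell, all genes tested and all 27025 promoters of the RefSeq table. CCAAT and GGGCGG are more frequent among the genes that rose than among those that fell, 45.0% against 34.7% and 72.3% against 63.1%.

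Calls depended on the level of a gene. Genes were ranked by their mean at 2 h, which does not enter the difference between 6 h and 0 h, and divided into 5 classes of 2289 genes. From the lowest to the highest class 12.4%, 18.3%, 21.2%, 21.3% and 15.5% of genes rose, and 4.19%, 12.9%, 18.5%, 18.6% and 13.8% fell. The lowest class held 284 risers and 96 fallers. The median log2 change was 0.07 in the lowest class and -0.01 in the highest, and without the filter on dim probes this order turned round.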

How the data were processed

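Total RNA (Trizol, spin columns) was amplified to biotin-labelled cRNA and hybridised to single-colour Illumina bead arrays, per the labels' protocols. The deposited signals are unnormalised intensities on a linear scale for 45281 probes, taken from GenomeStudio, per the submitters' processing notes, its version not given in the sources used here. The detection p-value beside each signal was deposited by the authors, per the file headers, and 0 sample columns remained unmatched. From these values, signals were background corrected in limma (version 3.58.1, R 4.3.3) with normexp, which read the background off the detection p-values and added an offset of 16. Quantile normalisation and a log2 transform followed. A probe was kept if 3 or more of the 12 arrays detected it at p under 0.05 (20029 probes, of which 17029 had 1 gene), and each gene was represented by its kept probe with the highest mean. Array annotation named 1 gene for 34885 probes, several for 18 and none for 10378.

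All 12 arrays entered one limma model with 1 mean for each group. Its moderated test, 2-sided and with Benjamini-Hochberg adjustment over the 11445 genes, gave every adjusted p. Log2 changes had a median SE of 0.202, a precision limited by the 3 arrays of each group. The labels do not say that replicates are separate cultures, so p-values measure only the spread between these arrays, which may be technical. A gene detected on no array of a group is given as "at least N-fold", from the mean of the group that had signal against, per array, the higher of the gene's own signal and the lowest signal of any detected probe. The script was tested on simulated data.

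Same-numbered arrays of 6 h and 0 h deviated together from their group means, with correlations of 0.178, 0.269 and 0.396 for replicates 1, 2 and 3. A replicate block was therefore run as an alternative. Arrays with different numbers were not compared in this way, and what a shared number stands for was not tested. Other alternatives changed the background correction, scaling, filter, probe choice, array weights and arrays included, and used the authors' normalised intensities as deposited, as log2(value + 16).

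The 57 gene lists and the members were chosen with earlier results of these data known. Genes were named by size of change, list membership, gain or loss of detection, smallest p and difference from 2 h. Nodal, Lefty2, Smad2, Smad3, Foxh1, Atf4, Arc, Srf, Zfp36, Klf2, Tbx3, Prdm14, Chd4, Stx1a and some further list members were added after their values were seen. Promoter shares were planned for genes changed at least 2-fold, but too few of those had a promoter in the table, so all called genes were used, and the count over any listed start was added after seeing the data.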

Additional observations from a re-analysis of the deposited data

How the results depend on the processing

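The count of genes that differed between 6 h and 0 h, 3586, lay between 3337 and 4463 under the other settings and between 2553 (without 6 h replicate 1) and 3847 (without 18 h replicate 1) when single arrays were left out. The direction of every gene shared with each setting was kept, except for 1 gene when the probes of a gene were averaged. The count of changes of at least 2-fold depended on the background: it was 1294, against 453 without background correction, 765 with an offset of 50 and 403 in the authors' normalised table. Over the settings other than the omission of single arrays, list medians came as near to 0 as -0.539 for the Nodal pathway, -0.386 for Atf4 targets, -0.291 for histone methylation enzymes, -0.211 for hypoxia targets, 0.116 for neuronal genes and 0.185 for the Myc network, with no change of sign. Of 310 genes named by rule, 223 kept their call in all 23 alternatives, 86 lost it in at least 1, and 0 reversed.

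With the replicate block that pairs same-numbered arrays, 4370 genes differed between 6 h and 0 h and 2074 between 18 h and 6 h, and 0 of the 310 named genes changed their call at 6 h against 0 h. Dusp1, named outside the rule, was not called in the main fit but was called with the block, with array weights and without 0 h replicate 2. Between 6 h and 2 h array weights gave 2852 genes. Leaving out single arrays gave 527 (without 6 h replicate 1) to 1804 (without 0 h replicate 2) genes for 6 h against 2 h, and 530 (without 6 h replicate 3) to 1550 (without 0 h replicate 2) for 18 h against 6 h. The cause was not tested. The median log2 change of the 20% of genes with the highest level minus the 20% with the lowest was -0.084, and 0.00204 without the filter on dim probes. Dim genes carry only bounds, and 3 arrays a group limit calls of small changes.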

Other observations

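Probes without a named gene were fitted and adjusted on their own. Of 2991 that passed the detection filter, 269 were higher and 314 lower at 6 h than at 0 h. Both shares lay below those of the genes tested, 17.7% and 13.6%. By chromosome, the share of tested genes that rose ran from 12.0% on X to 24.2% on chromosome 8, and the share that fell from 11.6% on chromosome 5 to 16.7% on chromosome 18, with 0 tests made of these differences. Of 1351 called genes with further kept probes, 1167 had all of them in the same direction and 90 had all of them in the opposite one.

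Imprinted genes had 3 risers and 3 fallers of 27 (11.1% each, against 17.7% and 13.6% of all genes tested). There were 5 fallers with the replicate block, and 1 if 6 h replicate 1 or 3, or 0 h replicate 1 or 3, was left out. Among the risers were Inpp5f at 1.04 (SE 0.15, adjusted p = 0.00028) and the calcitonin receptor Calcr, at least 1.55-fold higher (means 5.69 and 4.50, adjusted p = 0.00169). Genes of the joint interferon and antigen presentation list differed in direction. The class I heavy chain H2-K1 stood at 1.37 (SE 0.24, adjusted p = 0.00091, a further probe at -0.11) and the DNA sensor Cgas at -1.10 (SE 0.15, adjusted p = 0.000212). The lamins Lmna and Lmnb2 rose by 0.91 and 0.88, and Lmnb1 fell by 0.72 (adjusted p = 0.00532, 0.00151 and 0.0129), with the Lmnb1 call lost without 0 h replicate 3 or 6 h replicate 1. The splicing factor Srsf4 averaged 8.74 ± 0.31 at 6 h and 10.10 ± 0.06 at 0 h (SD, n = 3 each), a log2 change of -1.36 (SE 0.19, adjusted p = 0.00024).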
